A study of Homo sapiens with 6 samples.

Results

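Glucose transporters, the enzymes of each step of glycolysis, the enzymes and carriers that decide the fate of pyruvate and lactate, and targets of the hypoxia-inducible factors (HIF) were followed in RNA of gemcitabine-resistant PANC-1 cells. PANC-1 is an established line of human pancreatic ductal carcinoma, and gemcitabine is a nucleoside drug. The genes were the rows of the mRNA table whose symbol was on a list of 38 names, which gave 39 rows of 19912, because ALDOA had 2 rows. Of these, 36 had a mean of at least 0.5 FPKM and were tested, and BNIP3, CA9 and SLC16A1 were below it. FPKM is the number of fragments of a gene, scaled by its length and by the size of the library.

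A short hairpin RNA against the splicing factor SRSF3 (label shSRSF3) was given in 3 libraries, called here the libraries labelled knockdown. A further 3 libraries, labelled ctrl, are the controls. Both groups are the same resistant line, so they share the resistance phenotype and differ, per the labels, only in that treatment. The labels name no hairpin sequence, clone, culture or batch, so the p-values rest on the spread among these 6 libraries alone, and that spread may be technical. SRSF3 itself had 36.9, 37.1 and 38.6 FPKM in the libraries labelled knockdown, against 37.0, 39.6 and 39.2 FPKM in controls. The groups overlapped, and the log2 change was -0.04 (SE 0.05, limma adjusted p = 0.612, exact two-sided permutation p = 0.3). The mRNA table therefore shows no detected fall of the targeted gene, with a 95% interval from -9.68% to 4.92%, and the directions given are those of libraries that carry the label.

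Library totals recovered from the values were 24903382 to 27300517 fragments in the libraries labelled knockdown and 24558238 to 27351642 in controls. The ductal keratin KRT19 stood at 378 to 444 FPKM in the libraries labelled knockdown and 401 to 444 FPKM in controls, while KRT7 was at most 0.241 FPKM in every library. All 5 fibroblast markers summed to at most 0.333 FPKM in a library labelled knockdown and 0.4003 FPKM in a control. All 4 endothelial markers summed to at most 0.277 FPKM in a library labelled knockdown and 0.253 FPKM in a control. Among the immune markers PTPRC and LYZ were listed at 0 in all libraries, and the sums, nearly all from CD14, were 2.64 to 2.68 FPKM in the libraries labelled knockdown and 2.42 to 2.80 FPKM in controls. The 3 haemoglobin genes summed to 1.67 to 2.88 FPKM in the libraries labelled knockdown and 1.501 to 2.78 FPKM in controls. Knockdown-labelled library 1 stood apart, with 32.1% of the summed mRNA FPKM in the 13 mitochondrial mRNAs, against 27.5% in knockdown-labelled library 2, 25.6% in library 3 and 25.6% to 26.2% in controls.

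Glycolysis splits glucose into pyruvate in the cytosol. Hexokinase and phosphofructokinase are its regulated early steps, and lactate dehydrogenase and the lactate carriers dispose of the pyruvate that mitochondria do not take. When oxygen is short, HIF prolyl hydroxylases no longer mark HIF-1α for degradation, and the factor binds short promoter elements with the core ACGTG or GCGTG and raises transcription of glucose transporters, nearly all glycolytic enzymes, VEGFA, CA9 and its own hydroxylases. Pancreatic ductal carcinoma is known for high glucose uptake and poor perfusion. HIF-1α is controlled mostly through degradation of the protein, which these data do not measure. In such bulk RNA, fewer cells of a kind and less RNA per cell cannot be told apart.

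Of the 36 tested rows, 9 were higher and 1 was lower in the libraries labelled knockdown (limma on log2(FPKM + 1), Benjamini-Hochberg over all 10823 rows tested, threshold 0.05). The same test called 10.9% of all tested rows higher and 5.91% lower. The calls lay in uptake and glycolysis: both glucose transporters rose, 6 of 18 enzyme rows rose and 0 fell, and LDHA rose. Among the 11 tested rows of HIF and its targets, 0 rose and VEGFA alone fell. The median log2 change was 0.40 for the transporters, 0.19 for the enzyme rows, -0.00 for the lactate and pyruvate genes and -0.00 for HIF and its targets, beside 0.02 over all tested rows. The direction was positive in 25 of the 36 rows and negative in 11.

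With quantile normalization the 9 rises became 5, all among the same genes (SLC2A1, SLC2A3, GPI, PFKM and PFKFB3), and the fall of VEGFA was not called. Over the whole table that setting also moved the share of calls that were higher to 50.3%, against 64.8% without it. The count of rises was 10 without knockdown-labelled library 1, which included all 9. It was 4 and 15 without knockdown-labelled libraries 2 and 3, and 6, 4 and 3 without control libraries 1, 2 and 3. In the fits without a control or without knockdown-labelled library 2, the share of all tested rows called higher was also lower, at 3.58% to 6.63%, and without knockdown-labelled library 3 it was 16.4%.

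**Figure D1:**
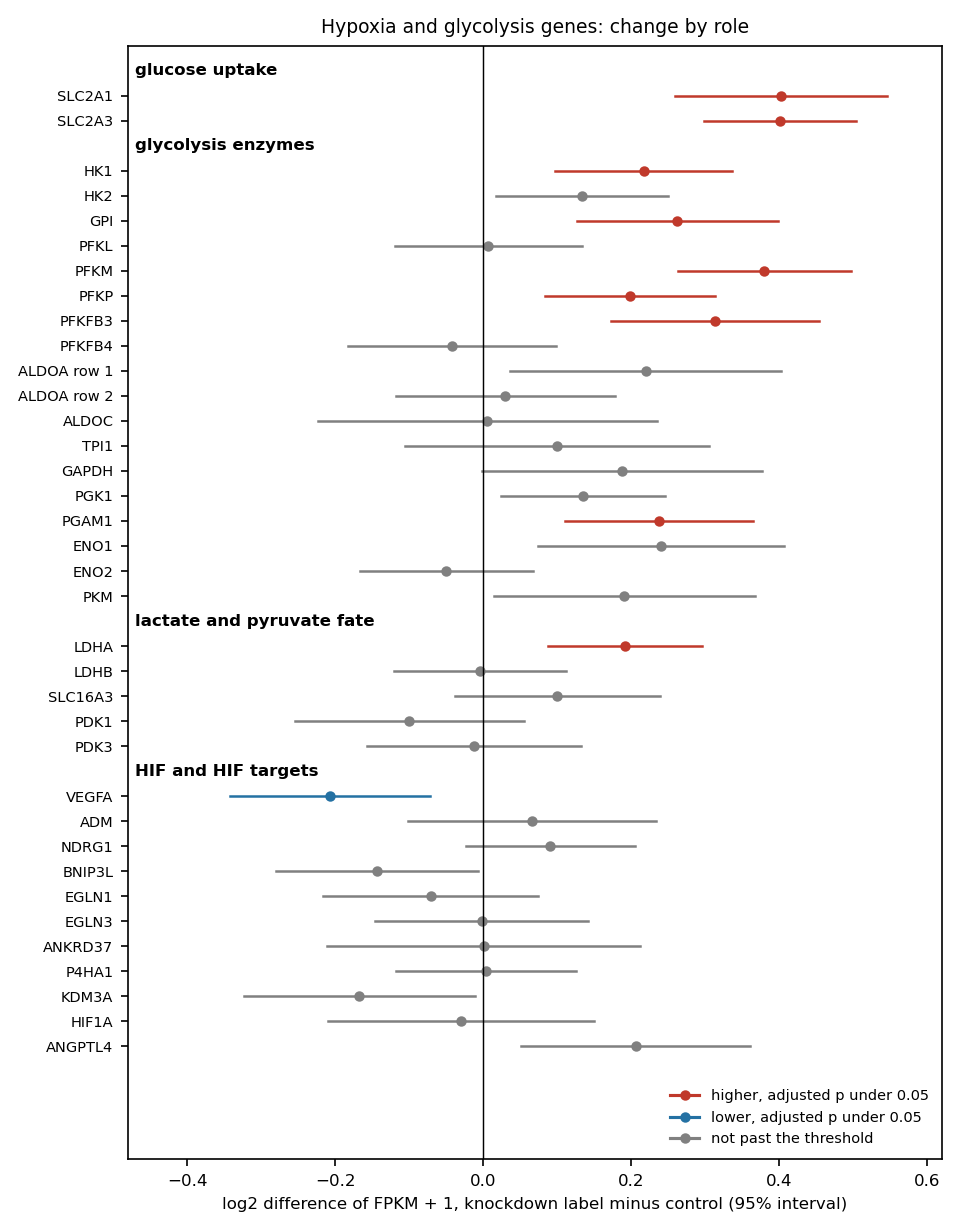
Log2 difference of FPKM + 1 (horizontal axis, libraries labelled knockdown minus controls) for the 36 tested rows, by role, with points for the estimate and lines for the 95% interval of the limma fit. The points of both transporters lie at 0.40, those of the enzymes mostly between 0 and 0.40, and those of HIF targets on both sides of 0.

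The genes are spread over a wide range of levels, and high rows rose more often in the whole table. At a mean of at least 100 FPKM, 25.8% of 341 tested rows were called higher and their median log2 change was 0.13. There the glycolysis and hypoxia genes had 3 of 8 rows higher (SLC2A1, PGAM1 and LDHA) and 0 lower, with a median of 0.19, while 4.11% of all rows there were lower. Between 20 and 100 FPKM 23.3% of 1968 rows were higher, against 3 of 6 of these genes (HK1, GPI and PFKP), and 4.98% were lower, against 0 of 6. From 5 to 20 FPKM the share was 11.5% of 4002 rows, against 3 of 12 (SLC2A3, PFKM and PFKFB3), and 6.45% were lower, against 0 of 12. Under 5 FPKM 3.81% of 4512 rows were higher, against 0 of 10, and 5.98% were lower, against 1 of 10 (VEGFA). The part of this trend in each gene's change was not tested. Summed over all 39 rows the level was 5170, 4922 and 4535 FPKM in knockdown-labelled libraries 1 to 3 and 4317, 4309 and 4116 FPKM in control libraries 1 to 3. The summed FPKM of the whole mRNA table was also higher, at 336887, 308101 and 287148 in the libraries labelled knockdown and 285701, 284236 and 275359 in controls. That sum includes the 13 mitochondrial mRNAs, with 108068, 84716 and 73651 FPKM in knockdown-labelled libraries 1 to 3 and 70369 to 74760 FPKM in controls. The sizes of these differences were not compared by a test.

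SLC2A1 encodes GLUT1, the main glucose transporter of most tumour lines, and was the fifth most abundant of these genes. Its level was 449, 456 and 417 FPKM in the libraries labelled knockdown, against 348, 335 and 317 FPKM in controls. Every library labelled knockdown stood above every control, by 32.3% on the means (log2 0.40, SE 0.06, limma adjusted p = 0.00363). SLC2A3 encodes GLUT3, a transporter with high affinity for glucose, and had 19.1, 19.4 and 18.5 FPKM in the libraries labelled knockdown, against 13.98, 14.2 and 14.2 FPKM in controls. Those groups were also apart, with a rise of 34.3% on the means (log2 0.40, SE 0.05, limma adjusted p = 6.85e-04). SLC2A3 has a near-identical copy, SLC2A14, and its reads may be split with it. The share of SLC2A1 in the sum of both transporters was 95.7% to 95.9% in the libraries labelled knockdown and 95.7% to 96.1% in controls. Both transporter calls were kept in every alternative fit.

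Hexokinase traps glucose in the cell as glucose 6-phosphate. The form HK1 had 48.2, 48.1 and 44.3 FPKM in the libraries labelled knockdown and 41.0, 41.2 and 38.3 FPKM in controls. Its groups did not overlap, and it rose by 16.6% on the means (log2 0.22, SE 0.05, limma adjusted p = 0.0232). HK2, a form that HIF induces, had 24.2, 26.5 and 26.7 FPKM in the libraries labelled knockdown and 23.6, 23.8 and 22.9 FPKM in controls. Its 6 values did not overlap either, but the change did not pass (log2 0.13, SE 0.05, limma adjusted p = 0.104), except without knockdown-labelled library 1 (adjusted p = 0.0326). GPI, the isomerase of the next step, had 75.6, 75.4 and 66.9 FPKM in the libraries labelled knockdown against 61.8, 62.2 and 57.1 FPKM in controls. It rose by 20.4% on the means, and knockdown-labelled library 3 was the lowest of its group and still above the controls (log2 0.26, SE 0.06, limma adjusted p = 0.0183). The HK1 call was lost with no filter (adjusted p = 0.0533), with quantile normalization (0.0524), without knockdown-labelled library 2 (0.0841) and without control libraries 1, 2 and 3 (0.0572, 0.0716 and 0.111). The GPI call was lost with no filter (0.0568), without knockdown-labelled library 2 (0.0716) and without control libraries 2 and 3 (0.0563 and 0.0883).

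Phosphofructokinase commits the sugar to glycolysis, and its subunits are named for muscle (PFKM), liver (PFKL) and platelets (PFKP). PFKM had 9.996, 10.9 and 10.4 FPKM in the libraries labelled knockdown, against 7.96, 7.68 and 7.66 FPKM in controls. That was a rise of 34.1% on the means with a clear gap between the groups (log2 0.38, SE 0.05, limma adjusted p = 0.00188), kept in every alternative fit. PFKP, the most abundant form, had 61.9, 66.7 and 60.8 FPKM in the libraries labelled knockdown and 55.4, 55.7 and 53.4 FPKM in controls. It rose by 15.1% on the means, again without overlap (log2 0.20, SE 0.05, limma adjusted p = 0.0279). PFKL had 41.4, 46.6 and 41.9 FPKM in the libraries labelled knockdown and 44.2, 43.7 and 41.4 FPKM in controls, so its groups overlapped. Its log2 change was 0.01 (95% interval from -0.12 to 0.13, limma adjusted p = 0.946), and it was -0.08 with quantile normalization. The PFKP call was lost with no filter (adjusted p = 0.0533), with quantile normalization (0.134), without knockdown-labelled library 2 (0.103) and without control libraries 1, 2 and 3 (0.0744, 0.0947 and 0.121).

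PFKFB3 and PFKFB4 make fructose 2,6-bisphosphate, the main activator of phosphofructokinase, and both are known HIF targets. PFKFB3 had 8.93, 10.1 and 9.79 FPKM in the libraries labelled knockdown, against 7.95, 7.62 and 7.03 FPKM in controls. It rose by 27.5% on the means, with no overlap (log2 0.31, SE 0.06, limma adjusted p = 0.0100), which did not pass once control library 3 was left out (adjusted p = 0.0508). PFKFB4 had 3.02, 2.92 and 2.74 FPKM in the libraries labelled knockdown and 2.82, 3.20 and 3.01 FPKM in controls, which overlapped (log2 -0.04, 95% interval from -0.18 to 0.10, limma adjusted p = 0.674).

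Aldolase cannot be read as a step. Its 2 rows had lowest and highest values of 9.56 and 12.7 FPKM (row 1) and 1.95 and 2.33 FPKM (row 2) in the libraries labelled knockdown, and of 9.0002 and 9.41 FPKM (row 1) and 1.997 and 2.18 FPKM (row 2) in controls. These levels are far below those of the neighbouring steps, and reads of overlapping records with 1 symbol may be split or left out. Row 1 was highest in knockdown-labelled library 1, and its log2 change was 0.22 (limma adjusted p = 0.0940), or 0.12 without that library, and it passed without knockdown-labelled library 3 (adjusted p = 0.0123). Row 2 had a log2 change of 0.03 (limma adjusted p = 0.786). ALDOC, the brain form, had 0.538 to 1.07 FPKM in the libraries labelled knockdown and 0.655 to 0.765 FPKM in controls (log2 0.01, limma adjusted p = 0.976).

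Below aldolase, GAPDH had the highest level of all these genes. TPI1, which interconverts the triose phosphates, had 505, 415 and 381 FPKM in the libraries labelled knockdown, against 401, 399.5 and 404 FPKM in controls. Knockdown-labelled library 3 was the lowest of all 6 and library 1 the highest, and the log2 change was 0.10 (limma adjusted p = 0.486), or -0.02 without knockdown-labelled library 1. GAPDH, the dehydrogenase that makes NADH, had 1575, 1463 and 1345 FPKM in the libraries labelled knockdown and 1303, 1317 and 1223 FPKM in controls. All libraries labelled knockdown were higher, but they spread widely and the change did not pass (log2 0.19, SE 0.09, limma adjusted p = 0.153), except without knockdown-labelled library 3 (adjusted p = 0.0354). PGK1, the first ATP-making enzyme, had 83.7 to 90.1 FPKM in the libraries labelled knockdown and 77.5 to 80.6 FPKM in controls, without overlap (log2 0.14, limma adjusted p = 0.0881), and passed without knockdown-labelled library 3 (adjusted p = 0.0393).

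PGAM1, the mutase of the next step, had 254, 274 and 257 FPKM in the libraries labelled knockdown and 226, 225 and 214 FPKM in controls. It rose by 18.0% on the means, with a gap between the groups (log2 0.24, SE 0.06, limma adjusted p = 0.0205). The call was lost with quantile normalization (adjusted p = 0.0602), without knockdown-labelled library 2 (0.0842) and without control libraries 1, 2 and 3 (0.0601, 0.0859 and 0.109). ENO1, the main enolase, had 797, 786 and 694 FPKM in the libraries labelled knockdown against 655, 652 and 618 FPKM in controls. It lay just outside the threshold (log2 0.24, SE 0.07, limma adjusted p = 0.0518) and passed at a mean of at least 5 FPKM (adjusted p = 0.0365), with voom on recovered fragments (0.0241) and without knockdown-labelled library 3 (0.00826). ENO2, the neuronal enolase, had 14.2 to 15.7 FPKM in the libraries labelled knockdown and 15.1 to 15.7 FPKM in controls (log2 -0.05, limma adjusted p = 0.541). PKM, pyruvate kinase, had 768, 709 and 637 FPKM in the libraries labelled knockdown and 633, 621 and 593 FPKM in controls, with no overlap and no call (log2 0.19, SE 0.08, limma adjusted p = 0.125), except without knockdown-labelled library 3 (adjusted p = 0.0184). PKM makes the forms PKM1 and PKM2 from alternative exons, and SRSF3 is known as a factor that acts on that choice, which a sum over the gene does not show. GAPDH, PGK1, PGAM1, ENO1 and LDHA have near-identical pseudogene copies with which reads may be split.

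Summed over the forms of each step, uptake averaged 459.7 FPKM in the libraries labelled knockdown and 347.3 FPKM in controls, 32.4% higher. Phosphofructokinase averaged 116.9 FPKM in the libraries labelled knockdown and 105.7 FPKM in controls, and enolase averaged 773.9 FPKM in the libraries labelled knockdown and 657.0 FPKM in controls. Of 11 such steps from uptake to lactate dehydrogenase, with aldolase left out, 10 had groups without overlap, all higher, and TPI1 overlapped. Over all tested rows 22.6% were higher without overlap, but those are single rows of every level. The steps all lie at high levels, where rows were called higher more often. The share without overlap at such levels was not computed. The differences ran between 4.79% for lactate dehydrogenase and the 32.4% of uptake.

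**Figure D2:**
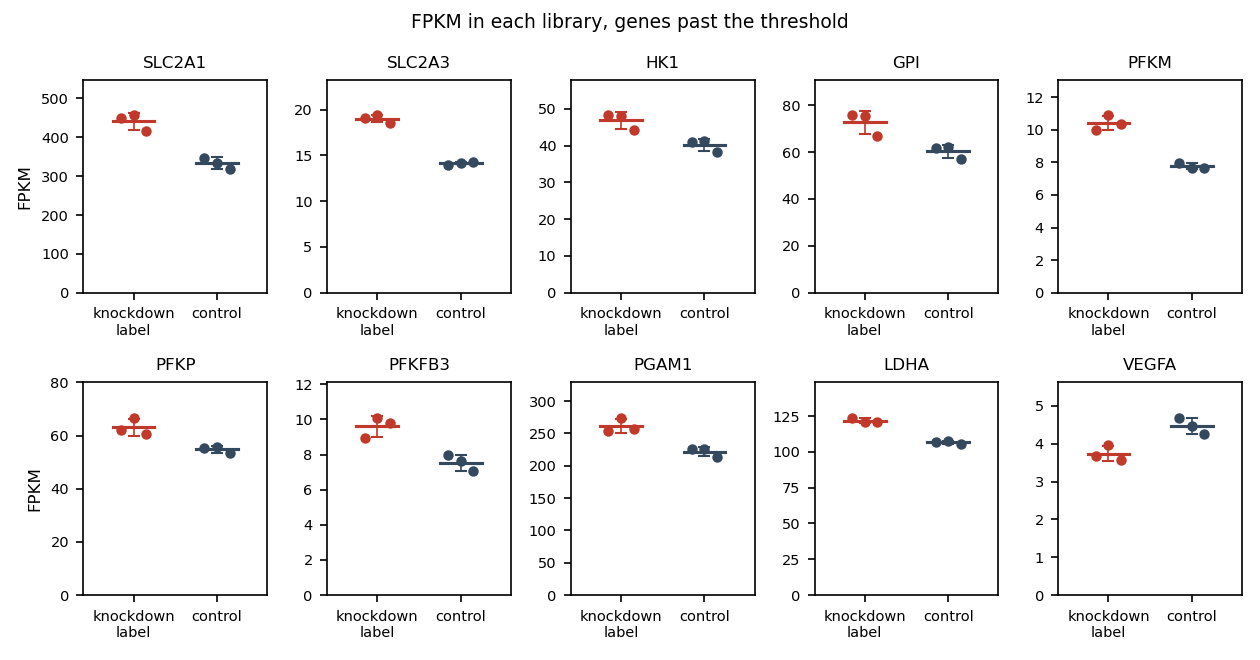
FPKM of each library (vertical axes from 0) for the 10 genes past the threshold, libraries labelled knockdown on the left and controls on the right, with lines for the means and bars for the SD (n = 3 each). In the 9 genes that rose all red points lie above the dark ones, and in VEGFA all lie below.

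LDHA, which turns pyruvate into lactate, had 124, 121 and 121 FPKM in the libraries labelled knockdown, against 107, 107 and 106 FPKM in controls. The values lay close together within each group, and it rose by 14.3% on the means (log2 0.19, SE 0.05, limma adjusted p = 0.0219). LDHB, the form that favours the reverse reaction, was more abundant, with 202, 195 and 202 FPKM in the libraries labelled knockdown and 195, 199 and 207 FPKM in controls. Its groups overlapped (log2 -0.00, 95% interval from -0.12 to 0.11, limma adjusted p = 0.969). The LDHA call was lost with quantile normalization (adjusted p = 0.131), without knockdown-labelled library 2 (0.0624) and without control libraries 1, 2 and 3 (0.0745, 0.103 and 0.1004).

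The lactate exporter SLC16A3 (MCT4) had 5.38 to 6.26 FPKM in the libraries labelled knockdown and 5.30 to 5.56 FPKM in controls, which overlapped (log2 0.10, limma adjusted p = 0.287). SLC16A1 (MCT1), the other main lactate carrier, rested on 1 to 4 fragments per library, at 0.00690 to 0.0147 FPKM in the libraries labelled knockdown and 0.00767 to 0.0295 FPKM in controls. Whether overlapping records or the counting lowered these values was not tested, and they do not show that the carrier was absent. PDK1 and PDK3 are kinases that close the entry of pyruvate into mitochondria. PDK1 had 0.416 to 0.532 FPKM in the libraries labelled knockdown and 0.482 to 0.614 FPKM in controls (limma adjusted p = 0.344). PDK3 was higher than PDK1 in level, with 3.28 to 3.87 FPKM in the libraries labelled knockdown and 3.5001 to 3.75 FPKM in controls (limma adjusted p = 0.919).

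The estimated log2 changes were not the same for all forms of an enzyme, so their shares were also compared. PFKL made up 36.6%, 37.5% and 37.1% of the 3 phosphofructokinases in the libraries labelled knockdown, against 41.1%, 40.8% and 40.4% in controls. PFKP stood at 54.0 ± 0.519% in the libraries labelled knockdown and 51.9 ± 0.323% in controls, and PFKM at 8.92 ± 0.224% in the libraries labelled knockdown and 7.35 ± 0.159% in controls (SD, n = 3 each). LDHB made up 62.0%, 61.8% and 62.6% of lactate dehydrogenase in the libraries labelled knockdown and 64.6%, 65.0% and 66.2% in controls. PFKFB4 made up 23.2 ± 1.85% of PFKFB3 and PFKFB4 in the libraries labelled knockdown and 28.6 ± 2.07% in controls, and ENO2 1.92 ± 0.0884% of both enolases in the libraries labelled knockdown and 2.34 ± 0.0587% in controls. BNIP3L, in the sum with BNIP3, was at 97.8 ± 0.376% in the libraries labelled knockdown and 96.4 ± 0.830% in controls (SD, n = 3 each). In these 7 of 13 shares the groups did not overlap. The 3 phosphofructokinase shares are parts of the same sum and are not separate results. Groups also did not overlap in 37.9% of tested rows, but those are levels of single rows and not shares. Each of the 7 shares had an exact two-sided permutation p = 0.1, the smallest that 3 against 3 libraries allow. Adjusted over the 13 shares, it became 0.186 for each of them. With a smallest p of 0.1 no share could pass a threshold of 0.05, so this test cannot decide whether the shares differed. The share of HK2 in both hexokinases, at 33.4% to 37.6% in the libraries labelled knockdown and 36.5% to 37.4% in controls, overlapped.

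**Figure D3:**
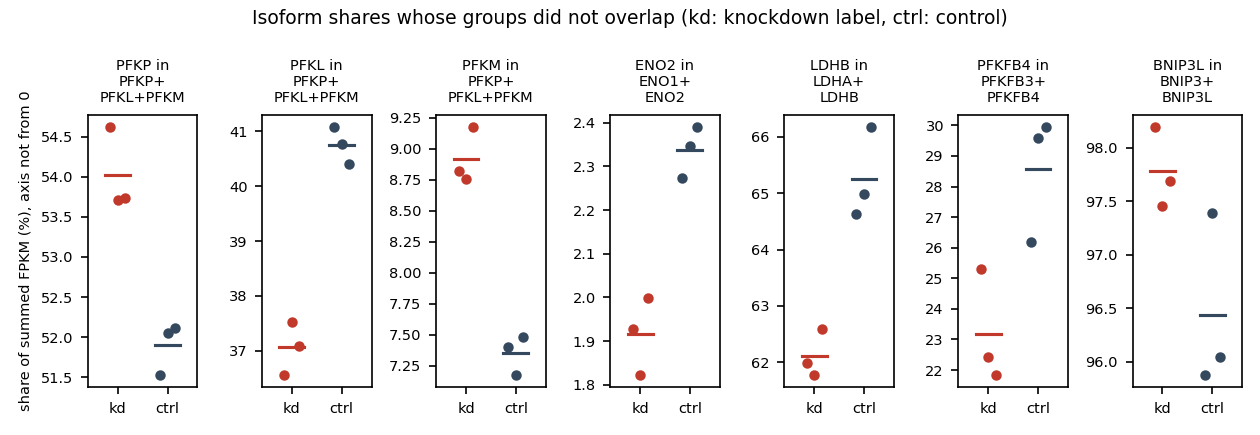
Share of summed FPKM in percent (vertical axes, not from 0) held by 1 form of a gene pair or trio in each library, with lines for the means. The 7 shares shown are those whose groups did not overlap, such as PFKL at 36.6% to 37.5% in libraries labelled knockdown (kd) and 40.4% to 41.1% in controls (ctrl).

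HIF1A encodes the oxygen-controlled HIF-1α subunit. It had 15.9, 15.7 and 20.004 FPKM in the libraries labelled knockdown and 17.1, 17.7 and 17.6 FPKM in controls. Knockdown-labelled library 3 was above and the other two below every control, and no change was detected (log2 -0.03, 95% interval from -0.21 to 0.15, limma adjusted p = 0.823). EGLN1 and EGLN3 are the prolyl hydroxylases PHD2 and PHD3, which mark HIF-1α for degradation and are themselves HIF targets. EGLN1 had 7.17, 7.89 and 8.53 FPKM in the libraries labelled knockdown and 7.91, 8.58 and 8.399 FPKM in controls, which overlapped (log2 -0.07, 95% interval from -0.22 to 0.07, limma adjusted p = 0.480). EGLN3 had 0.946 to 1.09 FPKM in the libraries labelled knockdown and 0.969 to 1.11 FPKM in controls (limma adjusted p = 0.986).

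VEGFA, the angiogenic growth factor and a classical HIF target, had 3.69, 3.96 and 3.57 FPKM in the libraries labelled knockdown, against 4.69, 4.48 and 4.25 FPKM in controls. Every library labelled knockdown was below every control, and the gene fell by 0.21 on the log2 scale (SE 0.06, limma adjusted p = 0.0418). That call lay close to the threshold. It was lost with no filter (adjusted p = 0.0893), with quantile normalization (0.0601), without knockdown-labelled libraries 1, 2 and 3 (0.0745, 0.0611 and 0.0649) and without control libraries 1, 2 and 3 (0.127, 0.136 and 0.0826), while its log2 change stayed between -0.24 and -0.18 over those fits. CA9, a carbonic anhydrase that is among the most HIF-dependent genes, was listed at 0 FPKM in all libraries labelled knockdown and at 0, 0.0469 and 0.0438 FPKM in controls.

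The remaining HIF targets did not pass. ANGPTL4, a secreted lipase inhibitor, had 5.91, 6.20 and 5.64 FPKM in the libraries labelled knockdown and 5.55, 4.54 and 4.93 FPKM in controls (log2 0.21, SE 0.07, limma adjusted p = 0.0689). It passed at a mean of at least 5 FPKM (adjusted p = 0.0477), without knockdown-labelled library 3 (0.0477) and without control library 1 (0.0428). NDRG1, a stress-responsive growth suppressor, had 8.47 to 8.92 FPKM in the libraries labelled knockdown and 7.85 to 8.31 FPKM in controls (log2 0.09, limma adjusted p = 0.246). BNIP3L, a receptor for removal of mitochondria, had 5.77 to 6.68 FPKM in the libraries labelled knockdown and 6.76 to 7.18 FPKM in controls, all lower (log2 -0.14, limma adjusted p = 0.133). Its relative BNIP3 was below the test's minimum, with 0.117, 0.151 and 0.158 FPKM in the libraries labelled knockdown and 0.291, 0.191 and 0.295 FPKM in controls, from 16 to 43 fragments.

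KDM3A, a histone demethylase, had 1.03 to 1.19 FPKM in the libraries labelled knockdown and 1.19 to 1.49 FPKM in controls, with the highest library labelled knockdown just under the lowest control (log2 -0.17, limma adjusted p = 0.127). The vasodilator peptide gene ADM had 2.13 to 2.76 FPKM in the libraries labelled knockdown and 2.26 to 2.41 FPKM in controls (log2 0.07, limma adjusted p = 0.572). P4HA1, a collagen prolyl hydroxylase, had 18.1 to 19.9 FPKM in the libraries labelled knockdown and 18.1 to 19.7 FPKM in controls (log2 0.00, limma adjusted p = 0.967). ANKRD37, an ankyrin repeat gene, had 1.24, 1.17 and 1.79 FPKM in the libraries labelled knockdown and 1.45, 1.46 and 1.25 FPKM in controls, with library 3 the highest, as for HIF1A (log2 0.00, limma adjusted p = 0.998). In all, groups did not overlap in 20 of the 36 tested rows, 17 of them higher and 3 lower, beside 37.9% of all tested rows (22.6% higher and 15.3% lower). The 3 lower rows, VEGFA, BNIP3L and KDM3A, all belong to the 11 tested rows of HIF and its targets. In that same block NDRG1 and ANGPTL4 were higher without overlap, and the other rows overlapped.

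**Figure D4:**
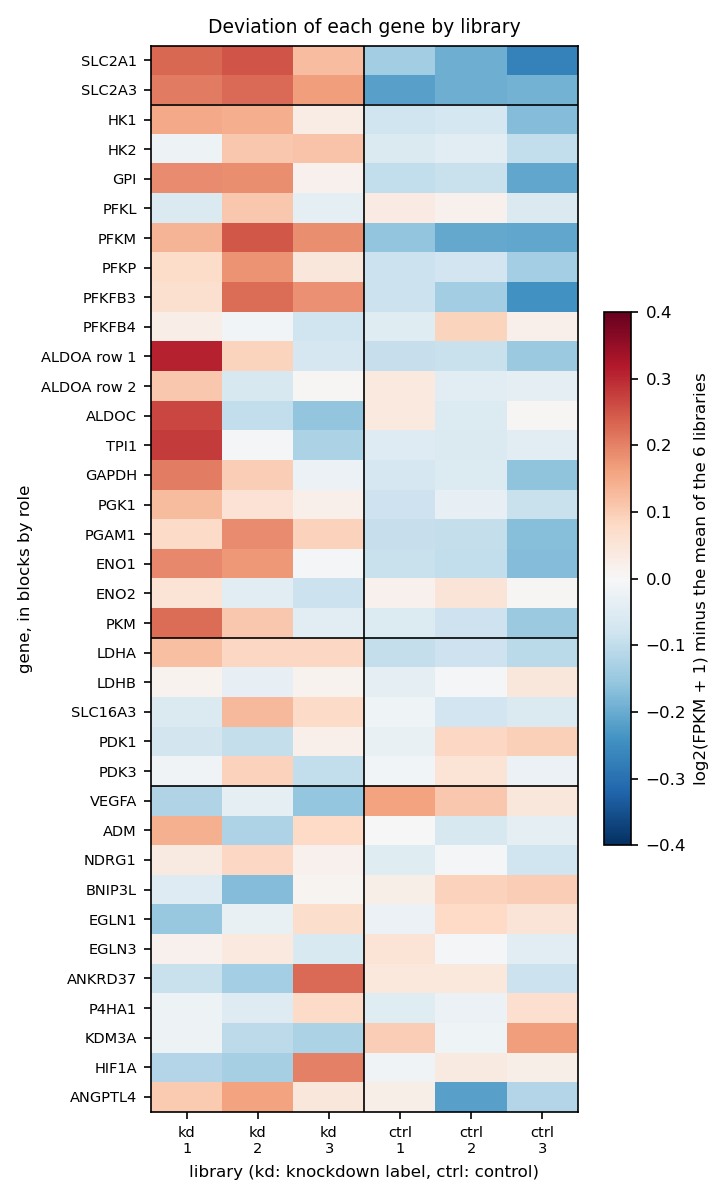
Log2(FPKM + 1) of each tested row minus its mean over the 6 libraries (colour scale), with the 3 libraries labelled knockdown (kd) left of the 3 controls (ctrl), in blocks for uptake, glycolysis, lactate and pyruvate fate, and HIF and its targets. The transporters are red in all libraries labelled knockdown and most enzymes in libraries 1 and 2, with library 3 paler, ALDOA row 1 and TPI1 are reddest in library 1, and HIF1A and ANKRD37 in library 3.

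Promoter sequence is shown for 5 of these genes because the HIF core ACGTG occurs in genes called higher and in genes not called higher. Windows of 250 bases before each annotated RefSeq start (GRCh38.p14) were found for 33 of the 38 genes, and those without were SLC2A3, SLC16A1, VEGFA, NDRG1 and BNIP3L. The letters ACGTG, on either strand, occurred in 24 of 61 windows of these genes (39.3%), against 18.5% of 35116 windows in the table, and a CACGTG site counts on both strands. Among genes with a window, 5 of 8 called higher and 16 of 25 not called higher held the letters in at least 1 window. Those 16 include CA9 and BNIP3, which were not tested. They also include HK2, GAPDH, PGK1 and ANGPTL4, which were higher without overlap but not called, as was row 1 of ALDOA, a further one of them. The other core, GCGTG, occurred in at least 1 window of 17 of the 33 genes, 4 of them called higher, and is not marked below. Genes with several annotated starts have several windows. The sequences run 5′ to 3′ on the gene's strand and end at the base before the start, and capitals mark ACGTG or its complement CACGT.

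One LDHA window (chr11:18394313-18394562, plus strand) holds 2 CACGTG and a further CACGT, and a PFKFB3 window (chr10:6202682-6202931, plus strand) holds 1 CACGTG. The other window of LDHA (chr11:18396101-18396350) and that of PFKFB3 (chr10:6144671-6144920) hold no ACGTG but 1 GCGTG each. The SLC2A1 window (chr1:42958869-42959118, minus strand) holds neither. These genes rose.
LDHA: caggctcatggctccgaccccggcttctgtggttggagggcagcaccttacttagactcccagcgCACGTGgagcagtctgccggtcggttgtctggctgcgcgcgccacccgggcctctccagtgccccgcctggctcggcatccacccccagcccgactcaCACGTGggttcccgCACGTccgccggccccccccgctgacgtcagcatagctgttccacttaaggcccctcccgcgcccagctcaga
PFKFB3: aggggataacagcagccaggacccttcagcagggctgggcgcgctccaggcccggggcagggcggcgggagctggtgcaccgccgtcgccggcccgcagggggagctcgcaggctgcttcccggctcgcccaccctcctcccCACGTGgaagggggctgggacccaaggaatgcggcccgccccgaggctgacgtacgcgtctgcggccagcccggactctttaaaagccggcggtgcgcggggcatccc
SLC2A1: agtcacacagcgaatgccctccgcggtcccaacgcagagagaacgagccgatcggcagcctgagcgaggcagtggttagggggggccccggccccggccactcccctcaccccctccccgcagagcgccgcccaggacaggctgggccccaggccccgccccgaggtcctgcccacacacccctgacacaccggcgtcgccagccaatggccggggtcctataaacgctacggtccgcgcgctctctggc

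The ANKRD37 window (chr4:185396591-185396840, plus strand) holds a CACGTG and a further ACGTG, and the CA9 window (chr9:35673678-35673927, plus strand) holds the letters once, 18 bases before the start. ANKRD37 had no detected change and CA9 was at or near 0 in every library.
ANKRD37: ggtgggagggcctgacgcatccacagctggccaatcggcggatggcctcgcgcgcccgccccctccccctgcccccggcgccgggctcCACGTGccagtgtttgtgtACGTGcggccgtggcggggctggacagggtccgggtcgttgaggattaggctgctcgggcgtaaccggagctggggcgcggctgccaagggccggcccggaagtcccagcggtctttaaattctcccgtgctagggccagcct
CA9: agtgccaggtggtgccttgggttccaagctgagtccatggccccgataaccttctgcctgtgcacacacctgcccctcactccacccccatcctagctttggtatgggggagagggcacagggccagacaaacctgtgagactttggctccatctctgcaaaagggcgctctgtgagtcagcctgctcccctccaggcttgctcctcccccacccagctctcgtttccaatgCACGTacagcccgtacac

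Other genes of these pathways were read from the same fit. Of 40 further HIF targets, 27 were tested, and TFRC rose while DDIT4, VLDLR and BHLHE40 fell (median log2 0.01), which is 1 of 27 higher and 3 of 27 lower, beside 10.9% higher and 5.91% lower among all tested rows. DDIT4, an inhibitor of the mTORC1 kinase, had 12.5, 16.5 and 16.8 FPKM in the libraries labelled knockdown against 28.6, 31.6 and 29.7 FPKM in controls (log2 -0.94, SE 0.09, limma adjusted p = 2.86e-04). VLDLR, a lipoprotein receptor, had 0.853, 0.916 and 0.894 FPKM in the libraries labelled knockdown against 1.58, 1.73 and 1.66 FPKM in controls, with no overlap (log2 -0.49, SE 0.06, limma adjusted p = 0.00103). BHLHE40, a transcriptional repressor, had 12.8, 12.8 and 11.6 FPKM in the libraries labelled knockdown and 15.2, 14.7 and 14.9 FPKM in controls (log2 -0.25, limma adjusted p = 0.0132), a call lost without control libraries 1, 2 and 3 (0.0502, 0.0537 and 0.0535). TFRC, the transferrin receptor, averaged 57.1 ± 2.76 FPKM in the libraries labelled knockdown and 50.6 ± 1.17 FPKM in controls (SD, n = 3 each; limma adjusted p = 0.0469). The TFRC call was lost with no filter (0.0742), median scaling (0.0518) and quantile normalization (0.399), without knockdown-labelled libraries 2 and 3 (0.149 and 0.0582) and without control libraries 1, 2 and 3 (0.145, 0.146 and 0.119).

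Of 13 tested genes for the other HIF subunits and the oxygen-sensing machinery, limma called 0. For this list and those below, the shares over all tested rows are 10.9% called higher and 5.91% lower. An unadjusted p below 0.05 was found for 6 of the 13, and the share of all rows below it was not computed. RBX1, a subunit of the VHL ubiquitin ligase, had the smallest adjusted p, 0.0670 (13.5 FPKM in the libraries labelled knockdown and 15.1 FPKM in controls). VHL, which recognises hydroxylated HIF, averaged 17.7 FPKM in the libraries labelled knockdown and 19.2 FPKM in controls (limma adjusted p = 0.132). Among 9 tested genes for other transporters and isoforms, ENO3, the muscle enolase, fell (0.899 ± 0.117 FPKM in the libraries labelled knockdown, 1.36 ± 0.289 FPKM in controls, SD, n = 3 each; limma adjusted p = 0.0418), a call lost without any 1 library (adjusted p between 0.0601 and 0.153), with no filter (0.112) and with quantile normalization (0.0704). Of 11 genes for the entry of pyruvate into mitochondria, PDPR, which restrains the pyruvate dehydrogenase phosphatase, fell (2.94 ± 0.173 FPKM in the libraries labelled knockdown, 3.56 ± 0.0773 FPKM in controls, SD, n = 3 each; limma adjusted p = 0.0351). That call was lost without knockdown-labelled libraries 1 and 2 (0.0763 and 0.0519), without control libraries 1, 2 and 3 (0.1003, 0.112 and 0.105), with no filter (0.0773) and with quantile normalization (0.0514). Of 10 genes of glycogen metabolism limma called 0, and 4 had an unadjusted p below 0.05, again without a share over all rows. The smallest adjusted p, 0.0546, was that of PYGL, the liver glycogen phosphorylase.

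The pentose phosphate pathway branches off at glucose 6-phosphate. Of its 7 tested genes, RPIA and PGLS rose and PGD fell, beside 10.9% of all tested rows higher and 5.91% lower. All 7 had means above 5 FPKM, where 11.5% to 25.8% of rows were higher, depending on the band of level. RPIA, the ribose phosphate isomerase, had 16.7, 16.9 and 16.7 FPKM in the libraries labelled knockdown and 13.7, 13.0 and 13.5 FPKM in controls (log2 0.31, SE 0.05, limma adjusted p = 0.00316), and its call was kept in every alternative fit. PGLS, the lactonase, averaged 24.1 ± 0.904 FPKM in the libraries labelled knockdown and 20.3 ± 0.785 FPKM in controls (SD, n = 3 each; limma adjusted p = 0.0125), a call lost without knockdown-labelled library 2 (0.0513) and control libraries 2 and 3 (0.0746 and 0.0588). PGD, the dehydrogenase after it, had 142, 123 and 111 FPKM in the libraries labelled knockdown and 149.8, 155 and 147 FPKM in controls. It was lower in every library labelled knockdown (log2 -0.27, SE 0.08, limma adjusted p = 0.0440), but was not called with no filter (0.127), without knockdown-labelled libraries 2 and 3 (0.123 and 0.0646) or without control libraries 1, 2 and 3 (0.105, 0.148 and 0.107).

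MondoA (MLXIP) and ChREBP (MLXIPL) bind DNA with MLX and answer to glucose phosphates, and TXNIP, which limits glucose uptake, is their best known target. TXNIP had 5.48, 6.03 and 6.12 FPKM in the libraries labelled knockdown against 6.96, 6.99 and 7.85 FPKM in controls, and it fell by 0.27 on the log2 scale (SE 0.06, limma adjusted p = 0.0207). MLX had 19.9, 20.1 and 20.4 FPKM in the libraries labelled knockdown and 17.6, 16.2 and 15.9 FPKM in controls, a rise (log2 0.27, SE 0.05, limma adjusted p = 0.00861). MLXIPL fell, with 0.697, 0.751 and 0.669 FPKM in the libraries labelled knockdown and 1.01, 1.16 and 1.15 FPKM in controls (log2 -0.30, SE 0.06, limma adjusted p = 0.0121). MLXIP and ARRDC4 did not pass (limma adjusted p = 0.448 and 0.954). That is 1 of 5 genes higher and 2 of 5 lower, beside 10.9% of all tested rows higher and 5.91% lower. The TXNIP call was lost with no filter (0.0603), without knockdown-labelled library 2 (0.0520) and without control libraries 2 and 3 (0.0565 and 0.0971). Without control library 2 the MLX and MLXIPL calls were lost (0.0537 and 0.0590), and without control library 3 that of MLXIPL (0.0604).

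Of 11 tested immediate early and heat shock genes, which respond to handling, JUN, EGR1 and IER2 rose and 0 fell, beside 10.9% of all tested rows higher and 5.91% lower. JUN and EGR1 lay between 20 and 100 FPKM, where 23.3% of rows were called higher, and IER2 between 5 and 20 FPKM, where 11.5% were. The direction was positive in all 11 genes. The other 8 did not pass. The list had a summed level of 1043 to 1146 FPKM in the libraries labelled knockdown and 995 to 1020.0 FPKM in controls. Of 13 mitochondrial mRNAs, MT-ND2 and MT-ND6 rose and 0 fell, beside 25.8% higher and 4.11% lower among all rows of at least 100 FPKM. The list summed to 108068, 84716 and 73651 FPKM in knockdown-labelled libraries 1 to 3 and 70369 to 74760 FPKM in controls. The MT-ND2 and MT-ND6 calls were lost with median scaling (adjusted p = 0.0540 and 0.0544), quantile normalization (0.563 and 0.611) and no filter (0.265 and 0.272), without knockdown-labelled library 2 (0.104 and 0.137) and without control libraries 1 (0.115 and 0.112), 2 (0.149 and 0.158) and 3 (0.188 and 0.199). Without knockdown-labelled library 1 the 9 rises of the glycolysis and hypoxia genes were all called, and the part of handling in them was not tested.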

How the data were processed

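The authors deposited FPKM values per gene symbol, per the file headers, in an mRNA and a lncRNA table. The tools, per the submitters' processing notes, include StringTie, HISAT2, edgeR and Cuffdiff, with no role stated. No build, annotation or strand setting of the counting is given in the sources used here, so whether antisense reads were counted apart is not known. Per the labels' protocols, poly-T selection was used, and a stranded, rRNA-depleted preparation for lncRNA. Each table was fitted with limma 3.58.1 (R 4.3.3; trend, two-sided): log2(FPKM + 1) at a mean of at least 0.5 FPKM for mRNA, log2(FPKM + 0.1) at 0.1 FPKM for lncRNA. Fold changes on these scales understate those of low genes. Library totals were recovered from the steps of the FPKM values (Python 3.11.15): 14770 of 14803 mRNA rows above 0 in at least 3 libraries (99.8%) gave whole fragments within 0.003. These fed a voom fit. The limma fit was also run on simulated data, in which every gene had the same dispersion and no library stood apart. That run does not cover the outlying library or the trend with level seen here. Alternatives were another pseudocount, other filters, median scaling, quantile normalization, each library left out, a replicate block and voom. Genes and lists were chosen with earlier results of these data known, and the bands of level after seeing the values. The text names every member, SRSF3, markers, and up to 4 called genes per other list. VHL, RBX1, PYGL, MLXIP and ARRDC4 were added after their values were seen.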

Additional observations from a re-analysis of the deposited data

How the results depend on the processing

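Without a filter on low values 960 genes of the whole mRNA table changed (595 higher, 365 lower), against 1819 (1179 higher, 640 lower) with it. Leaving out 1 library gave 643 to 2742 (387 to 1773 higher, 239 to 969 lower). Of the glycolysis and hypoxia genes, 9 rose, against 5 with quantile normalization and 3 to 15 with 1 library left out. The 1 that fell (VEGFA) became 0 with no filter, with quantile normalization and without any 1 library. With a 5 FPKM minimum the count was also 0, because VEGFA lay below that level and was not tested. The 17 calls in the other lists became 11 with no filter and 6 to 31 with 1 library left out. Directions that turned were all of small, uncalled changes, and the cause was not tested. With quantile normalization the log2 change was -0.0808 for PFKL, 0.0103 for PDK3, 0.0213 for EGLN3 and -0.0503 for P4HA1. With a pseudocount of 0.1 it was -0.0132 for ALDOC and -0.00645 for ANKRD37, with median scaling -0.00378 for ANKRD37, and with voom -0.0258 for ALDOC. With 1 library left out, log2 changes ran from -0.0454 to 0.0374 for PFKL, -0.0158 to 0.0701 for ALDOA row 2, -0.126 to 0.0868 for ALDOC, -0.0155 to 0.188 for TPI1, -0.0231 to 0.0186 for LDHB, -0.0608 to 0.0337 for PDK3, -0.0248 to 0.0277 for EGLN3, -0.113 to 0.0691 for ANKRD37, -0.0333 to 0.0386 for P4HA1 and -0.139 to 0.0278 for HIF1A. The replicate numbers were not shown to pair the libraries: same-numbered libraries had correlations of 0.08, 0.04 and 0.28 in their deviations, and not every library correlated best with its own number. With the replicate block 2323 genes changed, with 11 glycolysis and hypoxia rows higher (ENO1 and ALDOA row 1 besides the 9) and 1 lower. The lncRNA list had 0 calls in every fit run. Genes under 0.5 FPKM were not tested, which limits what can be said of BNIP3, CA9 and SLC16A1.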

Other observations

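The lncRNA table holds 13 of 17 hypoxia-linked lncRNAs on a further list, of which 9 reached a mean of 0.1 FPKM. Of these 9, limma called 0, and 3 had an unadjusted p below 0.05, a share not computed over all lncRNA rows. In all, 0 of 3092 tested lncRNA rows were called (0.0%). UCA1, a lncRNA known from carcinomas, had 11.7, 9.66 and 9.31 FPKM in the libraries labelled knockdown and 5.95, 6.15 and 5.67 FPKM in controls, with no overlap (log2 0.77, SE 0.11, limma adjusted p = 0.0982). NEAT1, the scaffold of paraspeckles, had 1.87, 1.87 and 1.90 FPKM in the libraries labelled knockdown and 2.495, 2.61 and 2.48 FPKM in controls (log2 -0.41, SE 0.13, limma adjusted p = 0.399). MALAT1, of nuclear speckles, averaged 2.83 ± 0.546 FPKM in the libraries labelled knockdown and 4.10 ± 0.300 FPKM in controls (SD, n = 3 each; limma adjusted p = 0.357). MIR210HG, the host of the HIF-induced miR-210, had 0.101 to 0.268 FPKM in the libraries labelled knockdown and 0.142 to 0.211 FPKM in controls (limma adjusted p = 0.952).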
